A study of Homo sapiens with 6 samples.

Results

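The members of activator protein 1 (AP-1) and the immediate early transcription factors listed with them were followed in triple-negative breast cancer (TNBC) cells exposed to Salvia chinensis Benth (SCH), a herb used in traditional Chinese medicine. They were taken by gene name from the deposited expression tables and comprised FOS, FOSB, FOSL1, FOSL2, JUN, JUNB, JUND, ATF3, EGR1 and IER2. All 10 were found among the 58735 genes, and all 10 had enough reads to enter the test, as did 14736 genes in all. Each of the 10 passed the filter on low counts in both groups. Messenger RNA of MDA-MB-231 cells was sequenced after 24 h in medium with SCH at 100 mg/l (3 samples) or with vehicle (3 samples). Both groups were wild type MDA-MB-231, an established TNBC line with mesenchymal features, so that the design held 1 cell line, 1 dose and 1 time. The sample labels name RPMI-1640 as the medium, the study's methods name DMEM for this line, and the composition of the vehicle is not given in the sources used here. The samples are described as biological repeats without saying how the cultures were split, so p-values measure the spread between these samples.

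AP-1 is a pair of basic leucine zipper (bZIP) proteins. FOS proteins need a JUN partner to bind DNA, whereas JUN proteins can also pair with each other, and the choice of partners sets how strongly a target gene is transcribed. Immediate early genes are those that growth factors or stress switch on without new protein synthesis, usually through MAP kinases and serum response factor (SRF), and their messengers are short-lived. FOSL1 is well known as an abundant AP-1 subunit of invasive, mesenchymal-like breast cancer lines.

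Depth ranged from 18334857 to 20291379 counts in the vehicle samples and from 16836369 to 18414924 in the SCH samples. The 10 genes took up 0.1094%, 0.1106% and 0.1084% of all counts after vehicle and 0.1411%, 0.1411% and 0.1301% after SCH. The cell line was recognisable by its markers in all 6 samples. The summed level of VIM, CD44 and EGFR, which this line expresses strongly, lay between 2908 and 3009 CPM (normalised read counts scaled to a common library size) after vehicle and between 2424 and 2469 CPM after SCH, with VIM the largest part after vehicle and CD44 after SCH. ESR1 had 1 to 4 counts per sample, PGR 0 or 1 and CDH1 1 to 6. EPCAM made up most of that low list, with 347, 280 and 314 counts after vehicle and 213, 203 and 240 after SCH. The 8 leukocyte markers summed to 58, 64 and 47 counts after vehicle and 30, 40 and 23 after SCH. PTPRC had the most of these counts after vehicle and CD14 after SCH. The B cell marker MS4A1 and the T cell marker CD3E had at most 1 count in any sample.

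SCH changed 9 of the 10 genes. The 7 that rose were EGR1, FOS, JUNB, FOSB, ATF3, JUND and IER2, of which the 5 named first rose by more than 1 on the log2 scale. FOSL1 and FOSL2 fell, and JUN did not pass the test. These calls come from the edgeR quasi-likelihood test on counts with Benjamini-Hochberg adjustment over all genes tested at a threshold of 0.05. The background was high, because 58.7% of all genes tested were called, 29.3% as raised and 29.4% as lowered. Raised calls of at least 1 on the log2 scale were rarer and covered 3.89% of genes, lowered calls of that size covered 4.88%, and both together 8.77%. The 3 SCH samples lay wholly above or wholly below the 3 vehicle samples in 9 of the 10 genes, as they did in 62.4% of all genes tested (31.1% above and 31.3% below). The median log2 fold change was 1.20 over the 10 genes and -0.0034 over all genes tested. In bulk RNA, fewer cells expressing a gene and less RNA of it per cell cannot be told apart.

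**Figure D1:**
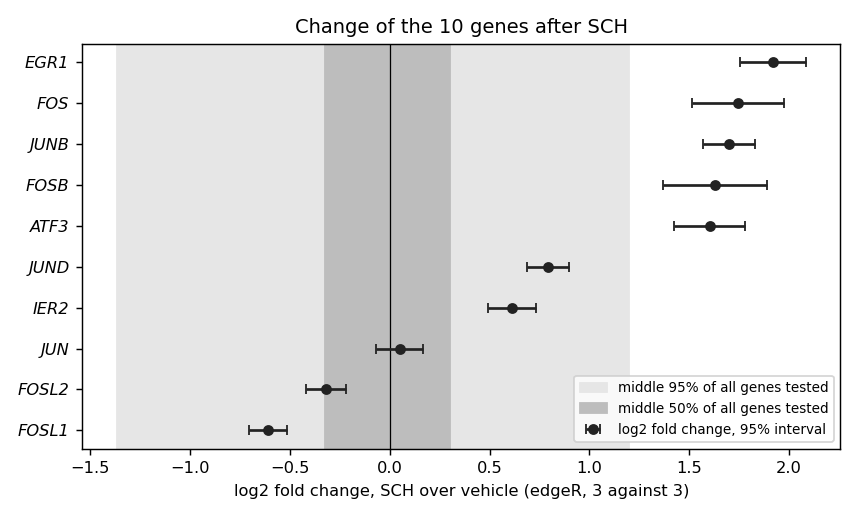
Log2 fold change of each gene (SCH over vehicle, 3 samples each, edgeR) with its 95% interval, beside bands that hold the middle 50% and the middle 95% of the 14736 genes tested. EGR1, FOS, JUNB, FOSB and ATF3 lie above the wider band, which ends at 1.20, and the interval of JUN spans 0.

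The FOS family split into a pair that rose from low levels and a pair that fell from high levels. FOS (ENSG00000170345, GRCh38 chr14:75278774-75282230), the prototype short-lived AP-1 subunit, had 6.05, 5.24 and 5.57 CPM in the vehicle samples and 17.2, 20.1 and 19.2 CPM in the SCH samples. Every SCH sample exceeded every vehicle sample. The fold change was 3.35, or 1.74 ± 0.11 (SE) on the log2 scale (edgeR adjusted p = 4.2e-12). FOSB (ENSG00000125740, chr19:45467995-45475179), a close relative of FOS that is known for stable spliced forms, had 4.31, 3.96 and 3.77 CPM after vehicle and 13.2, 12.6 and 11.5 CPM after SCH. It was the least abundant of the 10 genes in both groups, and the groups were again apart. Its fold change was 3.09, or 1.63 ± 0.13 (SE) on the log2 scale (edgeR adjusted p = 1.5e-10). FOS rested on 94 to 118 counts per vehicle sample and FOSB on 67 to 84. The FOSB locus lies within the span of ERCC1 on the opposite strand without sharing exon bases. On the log2(FPKM + 1) scale, which understates changes of genes with low levels, the FOSB log2 fold change was 0.90.

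FOSL1 (ENSG00000175592, chr11:65892049-65900573), which encodes FRA-1, had 365.8, 376.1 and 369.9 CPM after vehicle and 240.6, 244.3 and 243.5 CPM after SCH. Replicates differed little and the groups were far apart. The level was 1.53 times higher after vehicle, a log2 fold change of -0.61 ± 0.05 (SE) (edgeR adjusted p = 6.68e-11). FOSL2 (ENSG00000075426, chr2:28392448-28417312), which encodes FRA-2, had 203.5, 207.6 and 198.9 CPM after vehicle and 169.0, 162.5 and 157.3 CPM after SCH. It fell by less than FOSL1, with no overlap between groups. Its log2 fold change was -0.32 ± 0.05 (SE), a level 1.25 times higher after vehicle (edgeR adjusted p = 6.03e-06). The processed pseudogene FOSL1P1 had 0 counts in all 6 samples.

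Within the JUN family, JUNB rose most, JUND rose less and JUN itself did not pass the test. JUN (ENSG00000177606, chr1:58780788-58784327), the strongest activator of its family, had 297.5, 303.6 and 290.1 CPM after vehicle and 321.7, 327.4 and 273.0 CPM after SCH. SCH replicates 1 and 2 lay above all vehicle samples, whereas SCH replicate 3 lay below them. The log2 fold change was 0.05, with a 95% interval from -0.07 to 0.17, which corresponds to 0.953 to 1.12 times the vehicle level (edgeR adjusted p = 0.485, two-sided exact permutation p = 0.6). This call depended on 1 library, since without SCH replicate 3 the log2 fold change was 0.14 (edgeR adjusted p = 0.031). It also depended on the scaling, since without composition factors it was 0.15 (edgeR adjusted p = 0.0257).

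JUNB (ENSG00000171223, chr19:12791496-12793315), a weaker activator that can hold JUN activity in check, had 51.6, 50.6 and 44.4 CPM after vehicle and 169.1, 151.7 and 155.2 CPM after SCH. All SCH samples were above all vehicle samples by a wide margin. The fold change was 3.25, or 1.70 ± 0.06 (SE) on the log2 scale (edgeR adjusted p = 3.66e-16). HOOK2 exons on the opposite strand cover 14.2% of the JUNB exon bases, and HOOK2 itself had 259 to 349 counts per sample against 789 to 2951 for JUNB. JUND (ENSG00000130522, chr19:18279760-18281622), the family member expressed most constantly in resting cells, had 120.3, 116.6 and 119.3 CPM after vehicle and 208.3, 211.4 and 197.4 CPM after SCH. The groups did not overlap. Its fold change was 1.73, or 0.79 ± 0.05 (SE) on the log2 scale (edgeR adjusted p = 3.55e-12).

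ATF3, EGR1 and IER2 lie outside the FOS and JUN families, and all of them rose. ATF3 (ENSG00000162772, chr1:212565334-212620777), a stress-induced bZIP factor that can pair with JUN proteins, had 10.2, 10.8 and 9.50 CPM after vehicle and 31.3, 29.7 and 31.5 CPM after SCH. Samples of a group were close to each other and the groups were apart. The fold change was 3.03, or 1.60 ± 0.09 (SE) on the log2 scale (edgeR adjusted p = 2.97e-13). EGR1 (ENSG00000120738, chr5:138465490-138469315), a zinc finger factor and a classical SRF target, had 32.6, 30.8 and 29.2 CPM after vehicle and 118.4, 131.6 and 100.0 CPM after SCH. It had the largest log2 fold change of the 10 genes and ranked 75 among all genes tested by log2 fold change. SCH replicate 2 was the highest and SCH replicate 3 the lowest of the treated samples, still above all vehicle samples.

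The EGR1 fold change was 3.78, or 1.92 ± 0.08 (SE) on the log2 scale (edgeR adjusted p = 2.96e-15). IER2 (ENSG00000160888, chr19:13150415-13154908), a short-lived nuclear protein of the early growth factor response, had 46.1, 47.3 and 46.7 CPM after vehicle and 73.0, 70.3 and 70.9 CPM after SCH. Both groups were tight and did not overlap. The fold change was 1.53, or 0.61 ± 0.06 (SE) on the log2 scale (edgeR adjusted p = 3.86e-09). The antisense gene AC011446.2, whose exons share 30.8% of the IER2 exon bases, had 0 counts in every sample.

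Replicate spread of the 10 genes was like that of other well covered genes. The median SD of log2 CPM was 0.056 after vehicle and 0.067 after SCH, beside 0.078 and 0.070 for the 10714 genes that averaged 100 counts or more. EGR1 and JUN were the most variable members after SCH, with SDs of 0.2 and 0.145, and FOSL1 was the least, with 0.012.

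Promoter sequences of the 3 genes below are shown because they rose to different extents and carry different elements in the 250 bases before the RefSeq start (GRCh38.p14). Of the 10 genes, 9 matched an entry of the RefSeq promoter table by symbol, and FOSL1 did not. Capitals mark, in EGR1, one GCGNGGGCG match, the element that EGR proteins bind, and a pair of CArG boxes, the element that SRF binds. In JUNB they mark TATAAA, and in JUND 2 TGANNTCA matches, the CRE-like element that JUN and ATF dimers bind. The windows are chr5:138465229-138465478 on the plus strand, chr19:12791236-12791485 on the plus strand and chr19:18281623-18281872 on the minus strand.
EGR1: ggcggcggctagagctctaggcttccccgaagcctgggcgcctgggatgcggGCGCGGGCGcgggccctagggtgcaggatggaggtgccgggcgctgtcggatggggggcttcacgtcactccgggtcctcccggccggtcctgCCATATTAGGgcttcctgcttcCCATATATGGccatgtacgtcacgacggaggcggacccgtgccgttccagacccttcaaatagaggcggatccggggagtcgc
JUNB: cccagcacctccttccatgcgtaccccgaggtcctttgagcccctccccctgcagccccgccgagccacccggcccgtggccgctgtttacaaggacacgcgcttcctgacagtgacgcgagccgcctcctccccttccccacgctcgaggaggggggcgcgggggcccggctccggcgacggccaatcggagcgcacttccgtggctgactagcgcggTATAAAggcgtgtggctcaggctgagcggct
JUND: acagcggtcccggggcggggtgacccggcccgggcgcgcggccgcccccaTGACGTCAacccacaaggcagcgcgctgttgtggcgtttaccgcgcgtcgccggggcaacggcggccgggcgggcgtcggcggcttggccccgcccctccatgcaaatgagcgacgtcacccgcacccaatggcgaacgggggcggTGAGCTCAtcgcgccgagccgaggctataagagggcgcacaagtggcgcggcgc

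Both strands of these windows were searched for 6 motifs, and a match is a description of letters only. The 2 CArG boxes of EGR1 lay at bases -105 to -96 and -83 to -74 from the start, and EGR1 was the 1 gene of the 9 with such a match, beside 1.16% of the 35116 promoters in the table. TGANNTCA occurred in ATF3, JUN and JUND, beside 10.1% of promoters. TATAAA occurred in ATF3, FOS, FOSB and JUNB, beside 10.7% of promoters, and lay 25 to 33 bases before the start in the last 3 of these. GCGNGGGCG occurred in EGR1 alone of the 9, beside 8.41%. The consensus AP-1 element TGANTCA (6.57% of promoters) and an NF-kB site (9.96%) had no match in the 9 genes. The 4 genes with TATAAA rose, and of those with TGANNTCA, ATF3 and JUND rose and JUN did not pass the test. The relation of these elements to the changes was not tested.

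To compare the genes with each other, levels were read per length, as deposited FPKM (fragments scaled for gene length and sequencing depth). After vehicle the mean levels ran from FOSL1 (189.8 ± 2.69 FPKM, SD, n = 3) through JUN (81.1 ± 1.91), JUND (61.6 ± 0.958), FOSL2 (27.5 ± 0.606), JUNB (25.9 ± 2.09), IER2 (14.7 ± 0.191), EGR1 (9.50 ± 0.525), ATF3 (2.43 ± 0.158) and FOS (1.68 ± 0.122) to FOSB (0.698 ± 0.0480). Neighbours in this order did not overlap, except FOSL2 and JUNB. After SCH the order became FOSL1 (124.9 ± 0.723 FPKM, SD, n = 3), JUND (107.2 ± 4.11), JUNB (84.7 ± 5.18), JUN (84.3 ± 8.43), EGR1 (36.1 ± 4.98), IER2 (22.6 ± 0.522), FOSL2 (22.1 ± 0.876), ATF3 (7.41 ± 0.239), FOS (5.65 ± 0.430) and FOSB (2.18 ± 0.160). JUNB overlapped with JUN, and IER2 with FOSL2. FOS and FOSB thus remained at the bottom after their increase, and FOSL1 at the top after its decrease.

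**Figure D2:**
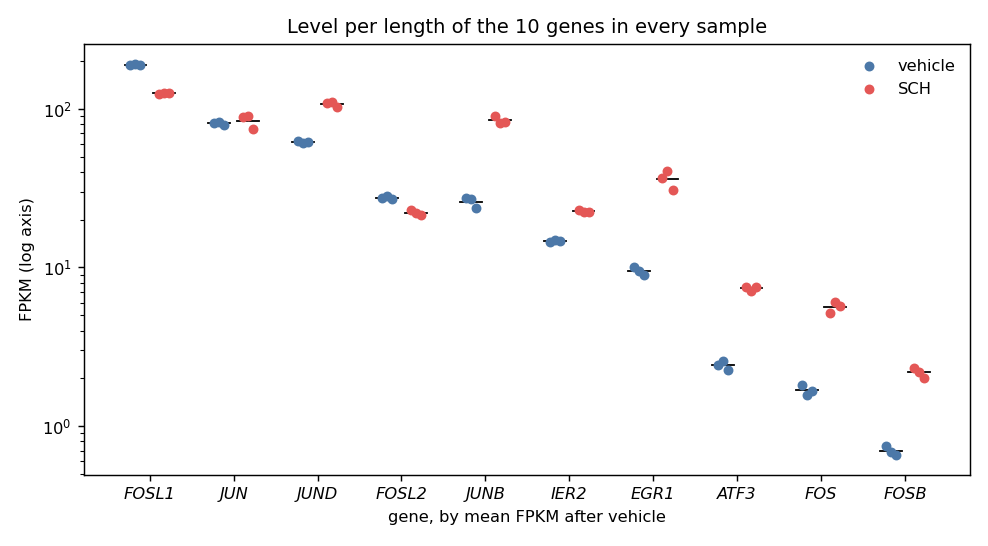
FPKM (log axis) of the 10 genes in each of the 3 vehicle and 3 SCH samples, ordered by the vehicle mean, with black lines for group means. FOSL1 is the highest gene in both groups (189.8 and 124.9 FPKM), and JUNB moves from 25.9 to 84.7 FPKM, the level of JUN.

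The makeup of each family shifted accordingly. Within the FOS family, FOSL1 supplied 86.4% ± 0.235 (SD, n = 3) of the summed FPKM after vehicle and 80.7% ± 0.431 after SCH. The share of FOS went from 0.764% ± 0.0648 to 3.65% ± 0.269, that of FOSB from 0.318% ± 0.0238 to 1.40% ± 0.0989, and that of FOSL2 from 12.5% ± 0.189 to 14.3% ± 0.538. FOSL2 therefore gained share although its own level fell. The summed level of the FOS family went from 219.6 ± 2.97 to 154.9 ± 1.05 FPKM (SD, n = 3), 0.705 times the vehicle level.

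In the JUN family the leading subunit by FPKM changed. JUN supplied 48.1% ± 0.593 of the family's summed FPKM after vehicle and 30.5% ± 1.63 after SCH (SD, n = 3). JUNB went from 15.4% ± 0.925 to 30.7% ± 1.62, and JUND from 36.5% ± 1.03 to 38.8% ± 0.894, so that JUND was the most abundant subunit per length after SCH, while JUN kept the most CPM, which are not scaled for length, in both groups. The summed level of the family went from 168.6 ± 3.59 to 276.2 ± 14.8 FPKM, 1.64 times the vehicle level. The FOS family outweighed the JUN family in every vehicle sample, and the JUN family outweighed the FOS family in every SCH sample. Each of these shares and sums was without overlap between the groups, and the two-sided exact permutation p was 0.1, the smallest that 3 against 3 samples allow.

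**Figure D3:**
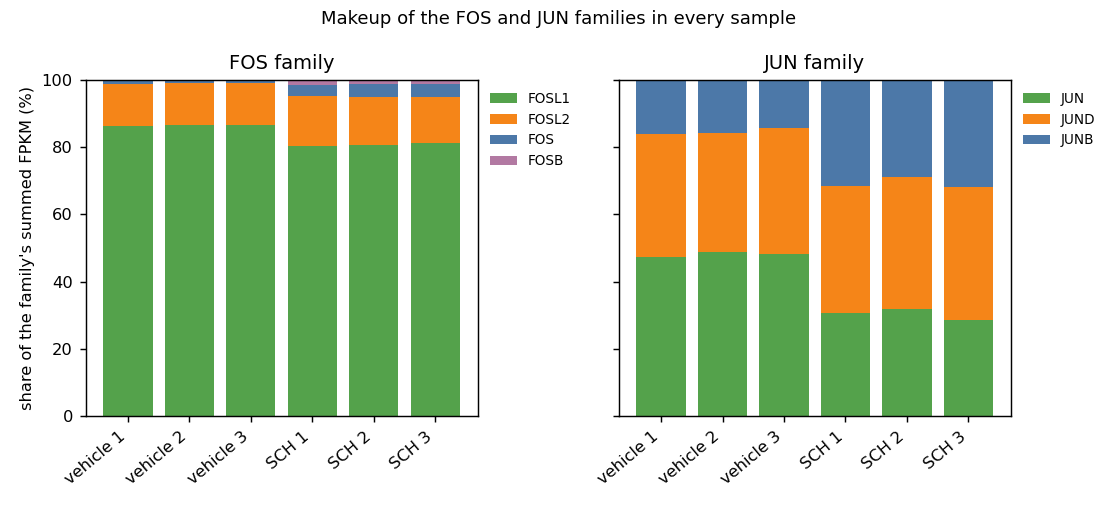
Share (%) of each gene in the summed FPKM of the FOS family (left) and the JUN family (right) in each of the 6 samples, as stacked bars. FOSL1 fills 80.3% to 86.7% of every FOS family bar, and the JUNB segment grows from 14.3% to 16.0% in vehicle samples to 28.8% to 31.8% in SCH samples.

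Differences between the changes of family members were tested directly on 4 log2 ratios of counts within a sample. The ratio of JUNB to JUN became 3.15 times higher after SCH, that of JUNB to JUND 1.88 times, that of FOS to FOSL1 5.12 times and that of FOSL2 to FOSL1 1.22 times. The 3 SCH samples lay above the 3 vehicle samples in all 4 ratios. The two-sided exact permutation p was 0.1 for each, also after adjustment over the 4 ratios, which is the smallest value this design can give.

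The deposited annotation placed 48 genes in the bZIP family, among them 8 of the 10 genes. These 8 supplied 36.5% ± 0.0906 of the summed bZIP FPKM after vehicle and 40.7% ± 0.899 after SCH (SD, n = 3). ATF4, the main factor of the integrated stress response, was the most abundant bZIP gene in both groups, with 223.3 FPKM after vehicle and 152.4 FPKM after SCH, followed by FOSL1. JUNB moved from rank 11 to rank 4 and FOSL2 from rank 10 to rank 12. Of the other 40 bZIP genes, 37 were tested, of which 16 rose (43.2%, beside 29.3% of all genes), 11 fell (29.7%, beside 29.4%) and 10 did not pass the test. Among the 32 that passed the filter in both groups, 13 rose (40.6%, beside 30.6% of all such genes) and 10 fell (31.2%, beside 30%). The median log2 fold change of the 32 was 0.09. Among those that averaged 50 counts or more, MAFK, BACH1, CREB3L4 and MAFF had the greatest increases, with log2 fold changes of 0.47 ± 0.07, 0.43 ± 0.07, 0.41 ± 0.15 and 0.40 ± 0.05 (SE). ATF5, ATF4, JDP2 and XBP1 had the greatest decreases, with -0.57 ± 0.07, -0.56 ± 0.05, -0.51 ± 0.11 and -0.42 ± 0.05. CREB3L4 did not pass in 4 of 15 alternatives. All were smaller than the changes of FOS, FOSB, JUNB and ATF3. TMEM184A shares 18.2% of the MAFK exon bases, and JTB and SLC39A1 share 12.9% of those of CREB3L4. IL4I1, MIR4751 and NUP62 share 23.7% of those of ATF5. Reads in these shared stretches cannot be assigned without strand.

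Of 16 bZIP factors that can pair with or replace FOS and JUN proteins, 10 rose (62.5%, beside 29.3% of all genes), 3 fell (18.8%, beside 29.4%) and 3 (BATF, BATF2 and ATF2) did not pass the test. Among the 14 that passed the filter in both groups, 8 rose (57.1%, beside 30.6% of all such genes) and 3 fell (21.4%, beside 30%). The median log2 fold change of the 14 was 0.30. Besides MAFK and MAFF, CREB5 and CREB1 rose, with log2 fold changes of 0.38 ± 0.09 and 0.38 ± 0.07 (SE). BATF3, which needs a JUN partner, fell together with ATF4 and JDP2, a repressor that competes with FOS for JUN, and its log2 fold change was -0.34 ± 0.09. That of JDP2 was -0.33 on log2(FPKM + 1).

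Most other immediate early genes rose. Of 30 listed, 29 were tested, of which 23 rose (79.3%, beside 29.3% of all genes), 3 fell (10.3%, beside 29.4%) and 3 did not pass the test. Among the 25 that passed the filter on low counts in both groups, 19 rose (76%, beside 30.6% of all such genes), 3 fell (12%, beside 30%), the median log2 fold change was 0.34, and 6 rose by at least 1 on the log2 scale. NR4A1, an orphan nuclear receptor, had 53, 57 and 41 counts after vehicle and 244, 237 and 226 after SCH, with no overlap between groups, and its log2 fold change of 2.23 ± 0.14 (SE) exceeded that of EGR1. Its relatives NR4A3 and NR4A2 rose by 1.82 ± 0.20 and 1.26 ± 0.17 on the log2 scale. On log2(FPKM + 1) the values of NR4A1, NR4A3 and NR4A2, all genes of low level, were 0.99, 0.53 and 0.63. EGR1 was at 1.81 on that scale, so there its change was larger than that of NR4A1. Exons of AC025259.3 share 10.3% of the NR4A1 exon bases. RHOB, a small GTPase induced by stress and growth factors, went from 24.5 ± 0.813 to 64.9 ± 4.10 CPM (SD, n = 3), a log2 fold change of 1.41 ± 0.07 (SE).

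The 3 that fell were MYC, PLK2 and CYR61. MYC, the growth-promoting factor, went from 241.9 ± 3.37 to 149.9 ± 14.5 CPM (SD, n = 3), a log2 fold change of -0.69 ± 0.06 (SE). The kinase gene PLK2 and the matricellular gene CYR61 had log2 fold changes of -0.54 ± 0.05 and -0.27 ± 0.05. KLF4, GADD45B and GEM did not pass the test, with log2 fold changes of -0.07, -0.07 and -0.14. BTG2, EGR3, ARC and EGR2, named here after their values were seen, had 1 to 16 counts per vehicle sample and 19 to 56 per SCH sample. They passed the filter on low counts through the SCH samples only, so their calls are not read as support.

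**Figure D4:**
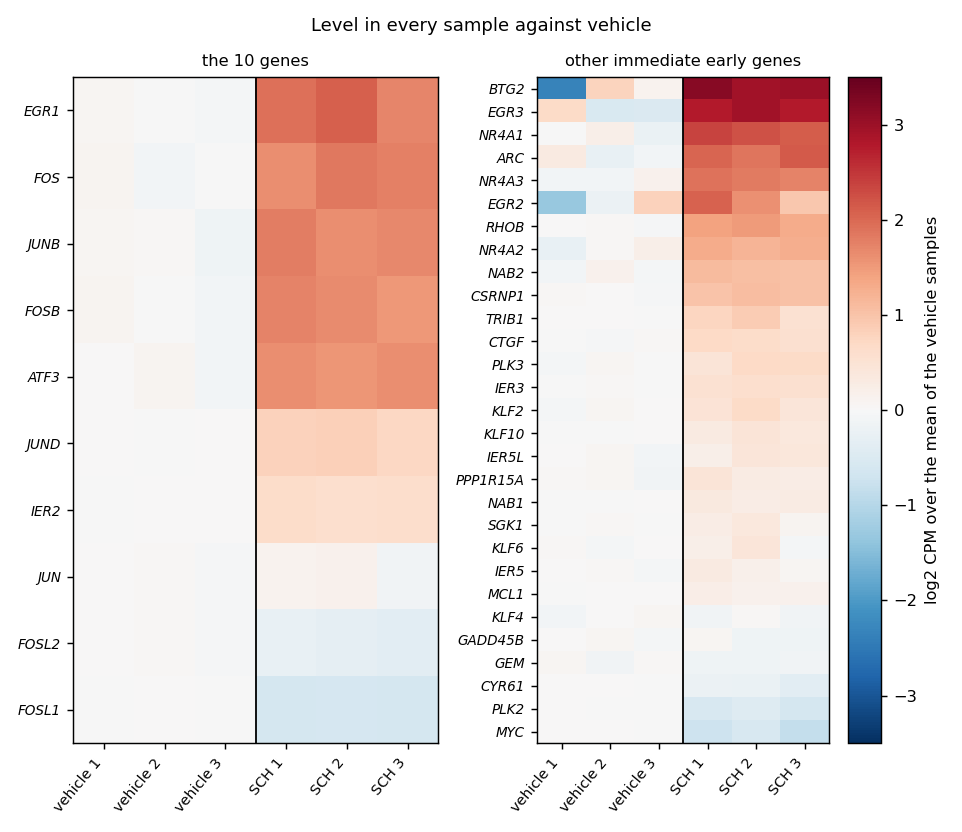
Log2 CPM of the 10 genes (left) and the 29 other immediate early genes tested (right) in each sample, minus the mean of the 3 vehicle samples, with genes ordered by log2 fold change. EGR1, FOS, JUNB, FOSB and ATF3 are raised in all 3 SCH samples, JUN is slightly low in SCH replicate 3, and FOSL1, FOSL2, MYC, PLK2 and CYR61 are low in all 3.

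SCH replicate 3 was the lowest of the 3 SCH samples for 12 of the 23 other immediate early genes that rose and the highest for 1 of them. Over all 4318 genes that rose, it was the lowest for 38.2% and the highest for 28.2%. Among the 7 raised members it was the lowest for 3. With each sample left out in turn, 21 to 23 of the other immediate early genes and 7 or 8 of the 10 members rose, the eighth being JUN.

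Of 24 tested genes of the kinase and SRF branch that feeds immediate early transcription, 8 rose, 7 fell and 9 did not pass the test, with a median log2 fold change of 0.05. MAP2K6, which was among those that fell, passed the filter on low counts through the vehicle samples only. The shares of 33.3% raised and 29.2% lowered were close to those over all genes tested (29.3% and 29.4%). RPS6KA1, the ERK-activated kinase RSK1, had the greatest increase, from 1030, 874 and 780 counts after vehicle to 1379, 1410 and 1334 after SCH, a log2 fold change of 0.63 ± 0.07 (SE). MAP2K1 (MEK1), the SRF coactivator MRTFA and MAP2K7, a JNK activator, rose by 0.31 ± 0.06, 0.30 ± 0.08 and 0.27 ± 0.06. Exons of AC116913.1 and SNAPC5 share 11.5% of the MAP2K1 exon bases. RPS6KA4 (MSK2), MAPK3 (ERK1), MAP3K5 (ASK1) and the SRF coactivator MRTFB had log2 fold changes of -0.60 ± 0.06, -0.45 ± 0.09, -0.35 ± 0.11 and -0.29 ± 0.08. The p38 alpha gene MAPK14 and the SRF partners ELK1, ELK3 and ELK4 were among those that did not pass the test, with log2 fold changes of 0.04, 0.12, 0.11 and 0.01. SRF itself, named here after its value was seen, was among those that fell. Its log2 fold change was -0.15 ± 0.06 (SE), with overlap between the groups (edgeR adjusted p = 0.0298). These counts depended on the processing and on 1 library. Without composition factors, 13 rose and 3 fell. Over all genes tested, more were then also called raised and fewer lowered, and the median log2 fold change was 0.0993. With DESeq2, with limma on either FPKM scale or without vehicle replicate 1, 4 of the kinase and SRF genes fell. Among the other named genes, MAP3K5 and MRTFB did not pass in 4 and 2 of 15 alternatives and were at -0.22 and -0.15 on log2(FPKM + 1). Transcript levels do not measure the activity of these kinases.

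Of the 9 MAP kinase phosphatases tested, 5 rose (55.6%, beside 29.3% of all genes), 2 fell (22.2%, beside 29.4%) and 2 (DUSP2 and DUSP5) did not pass the test, with a median log2 fold change of 0.26. DUSP1, itself an immediate early gene, had 1261, 1212 and 1249 counts after vehicle and 2696, 3392 and 2463 after SCH, a log2 fold change of 1.20 ± 0.08 (SE). DUSP16, DUSP6 and DUSP8 rose by 0.64 ± 0.08, 0.58 ± 0.05 and 0.55 ± 0.14 on the log2 scale (0.33 for DUSP8 on log2(FPKM + 1)), although 40.5% of the DUSP6 exon bases are shared with AC024909.2. DUSP4 and DUSP7 had log2 fold changes of -0.69 ± 0.05 and -0.44 ± 0.06.

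Of 10 tested factors that control the stability of short-lived messengers or of AP-1 proteins, 2 rose (20%, beside 29.3% of all genes), 5 fell (50%, beside 29.4%) and 3 (FBXW7, COP1 and USP28) did not pass the test, with a median log2 fold change of -0.14. ZFP36 (tristetraprolin), which promotes decay of AU-rich messengers, went from 19.0 ± 0.899 to 44.1 ± 1.23 CPM (SD, n = 3), a log2 fold change of 1.22 ± 0.07 (SE). ITCH, a ubiquitin ligase for JUN proteins, rose by 0.23 ± 0.05. HNRNPD (AUF1), ZFP36L1, ELAVL1 (HuR), which stabilises AU-rich messengers, and KHSRP had log2 fold changes of -0.80 ± 0.05, -0.40 ± 0.05, -0.35 ± 0.05 and -0.28 ± 0.05.

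Of 29 listed genes known to respond to AP-1, 26 were tested, of which 14 rose (53.85%, beside 29.3% of all genes), 7 fell (26.9%, beside 29.4%) and 5 (MMP3, IL6, LIF, EREG and CD44) did not pass the test, with a median log2 fold change of 0.35. MMP1, an interstitial collagenase and a textbook AP-1 target, had 969, 906 and 862 counts after vehicle and 3369, 3738 and 3730 after SCH, and its log2 fold change was 1.99 ± 0.05 (SE). The chemokine gene CXCL8, the EGFR ligand gene AREG and TGFB1 rose by 1.39 ± 0.06, 1.16 ± 0.07 and 0.95 ± 0.05. CCND1, which encodes cyclin D1, went from 670.7 ± 9.18 to 377.6 ± 17.2 CPM (SD, n = 3), a log2 fold change of -0.83 ± 0.05. EDN1 and VEGFA had log2 fold changes of -0.61 ± 0.11 and -0.49 ± 0.05. Other genes share 10.3% of the CCND1 exon bases (LTO1) and 7.61% of those of MMP1 (WTAPP1).

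**Figure D5:**
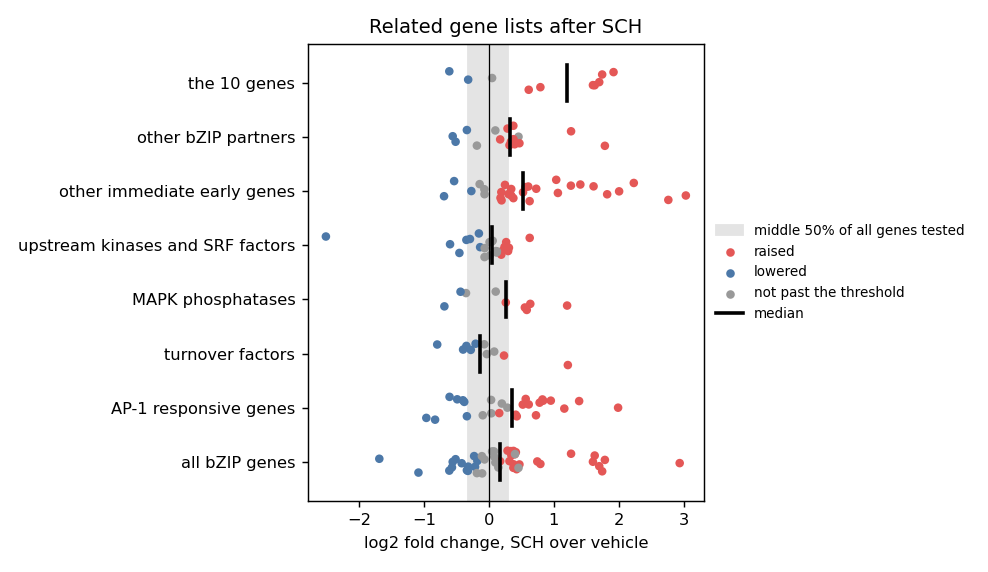
Log2 fold change (SCH over vehicle) of every tested gene in the 10 genes and in 7 related lists, one point per gene, red for raised, blue for lowered and grey for not past the threshold, with black bars for medians and a grey band for the middle 50% of all genes tested. The medians over the genes tested are 0.53 for the other immediate early genes and 0.05 for the kinases and SRF factors. BTG2, EGR3, ARC and EGR2 passed the filter on low counts through the SCH samples only. Over the genes that passed it in both groups, the medians are 0.34 and 0.06.

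Profiles most like those of FOS and JUNB over the 6 samples were looked up among 10704 genes that averaged 100 counts or more, with the 10 members left out, by the Euclidean distance between log2 CPM values centred on each gene's mean. For FOS the nearest were SERTAD1, RTL5 and TRAF1, at distances of 0.236, 0.247 and 0.248. For JUNB they were ULK1, TRAF1 and SMPD1, at 0.0856, 0.150 and 0.166. TRAF1, an adaptor of TNF receptor signalling that stood near both, rose by 1.68 ± 0.06 (SE) on the log2 scale, and ULK1, a kinase that starts autophagy, by 1.65 ± 0.07. Over 3 against 3 samples this distance depends largely on the size of the group difference. FOS and JUNB had similar log2 fold changes (1.74 and 1.70), so a gene near both is no sign of a shared profile beyond that.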

How the data were processed

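RNA of 6 MDA-MB-231 cultures was sequenced by Novogene Corporation for the authors, from poly(A)-selected libraries made with a NEBNext Ultra kit. The strand setting of the counting is not given in the sources used here. The submitters' processing notes name CASAVA 1.8, HISAT2 2.0.5, featureCounts 1.5.0-p3 and DESeq2 1.20.0 with GRCh38 (hg38). The authors deposited raw read counts per gene, with total counts of 16836369 to 20291379 per sample, and FPKM values per sample with gene annotation. Within each sample, the deposited FPKM were proportional to counts divided by gene length.

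Counts were tested with edgeR 4.0.16 (filterByExpr, TMM factors, quasi-likelihood test, Benjamini-Hochberg over 14736 genes) in R 4.3.3, SCH against vehicle. CPM are counts relative to the TMM-scaled library size. Shares and family sums used FPKM, and ratios between members used raw counts within a sample, all with exact permutation tests (scipy 1.17.1). The order of levels between genes was read on FPKM. DESeq2 1.42.0 and limma 3.58.1 served as alternatives. The fitting code was tested on simulated data. Exon overlaps came from GENCODE 29. The 10 genes and the 7 lists were chosen with earlier results of these data known. Named were all 10 genes and, per list, at most 4 changed genes per direction of 50 or more counts on average, taken by absolute log2 fold change, and the 3 genes nearest to FOS and to JUNB. Other genes of the lists are counted but not reported here by name. Genes outside this rule are marked as such or stand in lists of markers or of genes that did not pass.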

Additional observations from a re-analysis of the deposited data

How the results depend on the processing

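The main limits are 3 samples per group, 1 line, 1 dose and 1 time, and exact tests that cannot go below 0.1. In 15 alternatives per gene, 9 of the 10 members kept direction and side of the threshold, as did 43 of the 46 other named genes, and none of these genes changed sign. The median of all genes tested, -0.0034, lies near 0 and was above 0 in some alternatives. The exceptions were JUN, which passed in 2 alternatives, and MAP3K5, MRTFB and CREB3L4, which did not pass in 4, 2 and 4.

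Without composition factors the median of all genes moved to 0.0993 and the members' median to 1.30. Of all genes tested, more were then called raised and fewer lowered, and 13 kinase and SRF genes rose and 3 fell. The log2 fold changes of CYR61, KHSRP and MRTFB were then -0.17, -0.18 and -0.19. With DESeq2, with limma on log2(FPKM + 1) and with limma on log2(FPKM + 0.1), 4 kinase and SRF genes fell. The members' median was 0.85 with limma on log2(FPKM + 1), a scale that shrinks changes of genes with low FPKM. Requiring a log2 fold change of at least 1 left 1292 changed genes, 573 raised and 719 lowered. It left 0 lowered members, 2 raised and 0 lowered bZIP partners, 10 and 0 other immediate early genes (6 of the 10 passed the filter in both groups), 0 and 1 kinase and SRF genes (MAP2K6, named after its value was seen), 1 and 0 phosphatases, 1 and 0 turnover factors, 3 and 0 AP-1 responsive genes, and 7 and 2 bZIP genes. With CPM in place of FPKM, the changes in family share were 3.35 points for FOS, 2.16 for FOSB, -7.95 for FOSL1, 2.44 for FOSL2, 13.2 for JUNB and 5.09 for JUND, against 2.88, 1.09, -5.75, 1.78, 15.3 and 2.31 with FPKM.

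With each sample left out in turn, 7809 to 8489 genes changed (3936 to 4286 raised, 3873 to 4203 lowered), the members' median was 1.18 to 1.21, and 4 to 7 kinase and SRF genes fell, with 4 without vehicle replicate 1. Samples of the same replicate number did not deviate together (correlations of 0.039, -0.023 and 0.014 over 14736 genes), and not every sample correlated best with its own number. A replicate block gave 8705 changed genes against 8650 and changed no call of a member.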

Other observations

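Some bZIP genes of low abundance differed between the groups. They fell outside the rule for named genes, with mean counts under 50, and were chosen after their values were seen. MAFA, MAF and BACH2 passed the filter on low counts through 1 group only, so their values are given as counts without a test. MAFA had 8, 7 and 9 counts after vehicle and 57, 55 and 74 after SCH. MAF had 9, 3 and 13 counts after vehicle and 22, 36 and 29 after SCH. BACH2, a repressor that pairs with small MAF proteins, had 30, 44 and 33 counts after vehicle and 8, 9 and 16 after SCH. NRL had 48, 47 and 54 counts after vehicle and 19, 26 and 25 after SCH. At these depths the levels stayed far below those of MAFK and MAFF.

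PTPRC, the leukocyte marker with the most counts after vehicle, had 39, 37 and 34 counts after vehicle and 4, 9 and 3 after SCH, while CD14 had 16, 21 and 8 counts after vehicle and 18, 21 and 15 after SCH.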
